A study of Homo sapiens with 10 samples.

Results

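The 42 proliferation genes described here are 16 genes of DNA replication, from the MCM helicase to the thymidylate synthase TYMS, and 26 genes of G2 and mitosis. They were taken by name from the 58735 genes of a raw count table, by a list of names drawn up with earlier results of these data known, and all 42 passed the filter on low counts in each comparison. The RNA came from A253, a human cell line derived from a salivary gland tumor of squamous type, grown in medium with 10% serum. The control cells carried a guide RNA against dTomato, and the clones Cl1 and Cl10 carried guide RNAs flanking exon 2 of DUSP1, a phosphatase of MAP kinases. By the study's methods, lentiviral Cas9 was added to cells after the guides, and the clones were each grown from 1 cell. Both clones are heterozygous for the deletion, although the labels call them knockouts, and the study selected clones in which western blots showed no DUSP1 protein. Each group had 2 libraries, each clone is a single clone, and whether the control was also a clone is not given in the sources used here. The study reported reduced growth of these clones in culture. It stained Ki67 and a mitotic histone mark, as proteins, in organoids and mouse tumors, where it also reported more apoptotic cells. By its methods the RNA was extracted from cells, so the stains are of other material. The comparison asks whether transcripts of the cell cycle differ between clones and control.

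Genes of S phase and genes of mitosis are switched on in different waves of the cell cycle. Around the G1/S transition, E2F factors are freed from RB-family proteins and activate genes of origin licensing, nucleotide supply and DNA synthesis. Later, the MuvB core with B-MYB and then FOXM1 activates cyclin B, mitotic kinases and spindle genes, whose promoters often carry a cell-cycle genes homology region (CHR) together with CCAAT boxes bound by NF-Y. In a dividing culture of tumor cells, the level of such transcripts in bulk RNA depends on how many cells are in each phase and on how much RNA each cell holds, which cannot be told apart here.

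The promoters show how the 2 groups of genes differ in sequence. RefSeq windows from 250 bases before to 50 after the start (GRCh38.p14) were given for 34 of the 42 genes and not for MCM4, MCM5, AURKA, TTK, UBE2C, TPX2, BIRC5 and FOXM1. E2F1 and MCM6 are shown for the replication genes that rose, CDT1 because it fell in Cl1, and HMMR, CCNB2 and MKI67 for mitotic genes that moved in different directions. Each line gives the 120 bases before the start on the strand of the gene, 5′ to 3′. Capitals mark the letters that were searched, on both strands. These were the E2F-type heptamer TTGGCGC, a related heptamer that reads TTCCCGC, another E2F-type heptamer that reads TTCGCGC, the CHR hexamer written as TTTGAA, and the pentamer that gives the CCAAT box its name.
E2F1 (chr20:33686386-33686505, minus strand): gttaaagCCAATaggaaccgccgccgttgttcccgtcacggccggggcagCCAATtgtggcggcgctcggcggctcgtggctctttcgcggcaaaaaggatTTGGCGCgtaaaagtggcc
MCM6 (chr2:135876444-135876563, minus strand): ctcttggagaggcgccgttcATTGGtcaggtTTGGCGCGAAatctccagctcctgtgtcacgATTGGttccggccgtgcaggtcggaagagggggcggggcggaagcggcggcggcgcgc
CDT1 (chr16:88803669-88803788, plus strand): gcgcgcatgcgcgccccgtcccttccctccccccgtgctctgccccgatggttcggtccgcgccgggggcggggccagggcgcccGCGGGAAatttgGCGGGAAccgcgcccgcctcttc
HMMR (chr5:163460512-163460631, plus strand): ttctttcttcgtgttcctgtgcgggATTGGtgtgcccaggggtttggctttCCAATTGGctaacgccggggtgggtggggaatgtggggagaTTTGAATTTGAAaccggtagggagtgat
CCNB2 (chr15:59105026-59105145, plus strand): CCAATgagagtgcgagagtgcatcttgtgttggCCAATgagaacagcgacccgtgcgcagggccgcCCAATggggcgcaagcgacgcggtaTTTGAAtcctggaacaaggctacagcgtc
MKI67 (chr10:128126424-128126543, minus strand): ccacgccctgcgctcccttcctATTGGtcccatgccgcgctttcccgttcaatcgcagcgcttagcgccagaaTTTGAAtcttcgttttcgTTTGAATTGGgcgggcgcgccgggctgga

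In the full 300-base windows, the E2F-type letters were found in 12 of 14 replication genes (85.7%) and 3 of 20 mitotic genes (15.0%), against 11.2% of 27305 promoters. CHR letters were found in 1 replication gene, RRM1 (7.14%), in 13 mitotic genes (65.0%) and in 15.4% of all promoters. CCAAT boxes were common in both groups, with 78.6% and 85.0%, against 35.7% of all promoters. An ATTGG followed by CGC counts as both a CCAAT box and an E2F-type match. Of CHR variants, which are not in capitals above, TTTAAA was in 10 of the 20 mitotic windows, 7.14% of the replication windows and 12.3% of all. The variant TTCGAA was in 1 mitotic window, 7.14% of the replication windows and 1.45% of all. These matches are descriptions of the letters and do not show that a factor is bound there.

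Library totals ran from 47016495 to 70986593 counts. The targeted gene, DUSP1, had 744 and 635 normalized counts in control, 304 and 354 in Cl1 and 495 and 415 in Cl10, lower in every clone library than in both controls. Normalized counts were put on 1 scale with TMM factors, at the depth of the average library, and ± is a standard error (SE) of a log2 fold change unless SD is named. Libraries of 1 group differed beyond counting noise in 23.6% to 58.5% of genes, and since the labels do not say that replicates were separate cultures, p-values measure the spread between these libraries, which may be technical. The epithelial label held: summed over 8 squamous markers, KRT5 and KRT14 among them, libraries had 13513 to 16189 TPM (counts per exon length, scaled to the same sum in each library), against 9.73 to 15.3 for 12 markers of leukocytes, endothelium, fibroblasts and acinar cells, with LUM at 0 in all and COL1A2, CD3E, PECAM1 and AMY1A at 3 counts or fewer. Of these 12, COL1A1 (871 to 2095 raw counts) and VWF (140 to 379) were the most abundant.

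A further property of the libraries bears on every Cl1 value. All 42 genes were higher in Cl1 replicate 1 than in Cl1 replicate 2, by a median of 0.30 on the log2 scale, while 49.3% of all genes tested were. The same held for 45 of 47 other replication genes and 56 of 57 other mitotic genes tested. In the control, 18 of the 42 were higher in replicate 1, and in Cl10, 13 were. The Cl1 libraries thus differed from each other across the whole cell-cycle set, and its part in the Cl1 results is given below as values with each library left out.

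The 42 genes were well expressed in A253 cells. Per exon length, control levels ran from 13.2 TPM ± 0.49 (SD, n = 2) for NUSAP1, a microtubule-binding spindle protein, to 676 TPM ± 19.7 (SD) for CDC20, the activator of the anaphase-promoting complex. PCNA, the sliding clamp of DNA polymerases, stood at 531 TPM ± 40.7 (SD) and CCNB1, cyclin B1, at 507 TPM ± 8.79 (SD), and these neighbours in the order did not differ beyond their spread. Within the helicase ring, whose subunits assemble in equal numbers, the mean control level ran from 63.8 TPM for MCM2 to 334 TPM for MCM7. MCM5, at 65.7 TPM, was within the spread of MCM2 (SD 7.96). Exon length here joins all annotated exons of a gene, 9852 bases for MCM4 and 7268 for MCM5 against 4715 for MCM2 and 4960 for MCM7. Levels of different genes are therefore compared only roughly. Some rows share exon bases with a neighbour, and the strand setting of the counting is not given: NUSAP1 with OIP5 and OIP5-AS1, TYMS with ENOSF1, KIF20A with BRD8 and CDC23, FOXM1 with ITFG2, MCM7 with AP4M1, CCNA2 with EXOSC9, ANLN with MATCAP2 and BUB1B with PAK6, so that their values are less certain.

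Summed over the genes of each group, replication and mitotic transcripts stood in different proportions in the clones. The 16 replication genes took 0.198% and 0.207% of all counts in the control libraries, 0.230% and 0.181% in Cl1 and 0.293% and 0.298% in Cl10. Both Cl10 libraries were above the other 4, and the Cl1 libraries lay on either side of the controls. The 26 mitotic genes took 0.544% and 0.528% in control, 0.477% and 0.412% in Cl1 and 0.530% and 0.550% in Cl10. Here both Cl1 libraries lay below the controls, and Cl10 overlapped with them. The ratio of mitotic to replication counts was 2.75 and 2.55 in control, 2.07 and 2.27 in Cl1 and 1.81 and 1.85 in Cl10, with every clone library below both controls. These sums are dominated by abundant genes such as MKI67, TOP2A and MCM7 and are given without a test.

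**Figure D1:**
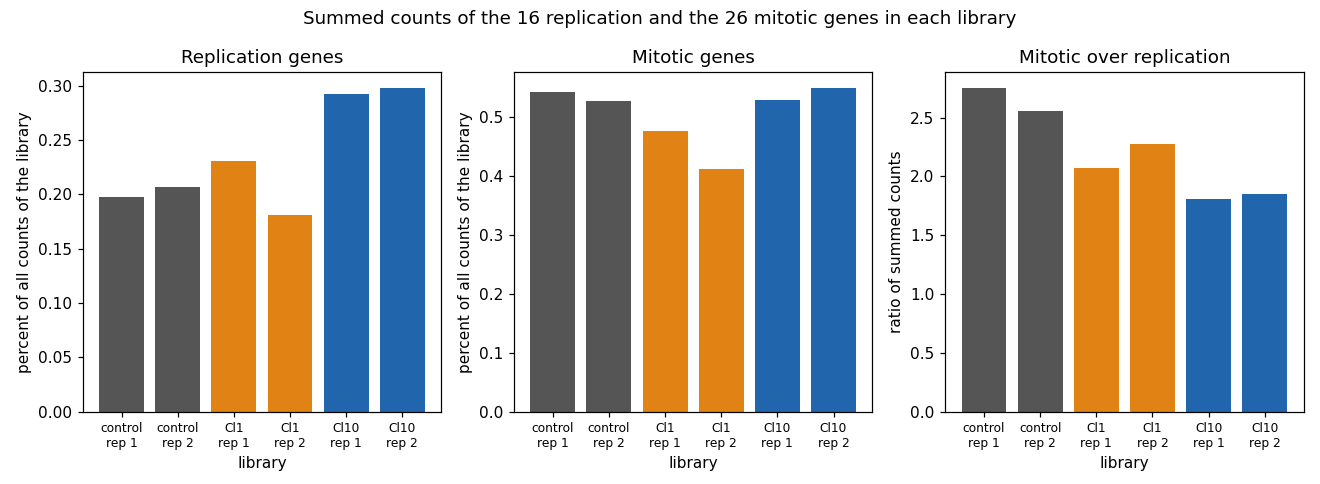
Bars give, for each of the 6 libraries, the percent of all counts held by the 16 replication genes (left), by the 26 mitotic genes (middle) and the ratio of mitotic to replication counts (right). The replication share is highest in Cl10 (0.293% and 0.298%), and the ratio is highest in control (2.75 and 2.55) and lowest in Cl10 (1.81 and 1.85).

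In Cl10 against control, the replication genes were higher nearly throughout and the mitotic genes were divided. Of the 16 replication genes, 13 rose (adjusted p under 0.05) and none fell, with a median log2 fold change of 0.57, where 20.6% of the 19875 genes tested rose and 21.8% fell, and the median of all genes was -0.011. At an unadjusted p under 0.05 in edgeR, 1 replication gene, CDT1, was lower, and by DESeq2 none fell (0 of 16). CDT1 did pass as lower, at -0.25 (adjusted p = 0.0412), when the median change of its nearest genes was used as an offset in edgeR. Of the 26 mitotic genes, 4 rose and 8 fell, counts not far from the shares of all genes, with a median of 0.02. Over all 42 genes, 17 rose, 8 fell and 17 did not pass. A log2 fold change beyond 1 was reached by E2F1 upward and HMMR downward and by no other member, where 5.98% and 7.44% of all genes passed with that limit. Among the 9501 genes within the members' range of abundance, 26% rose and 22.9% fell. Both Cl10 libraries were above both controls for 24 of the 42 genes and below them for 13, where such groups without overlap made up 36.2% and 37.6% of all genes.

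E2F1, the activator E2F whose own promoter holds E2F-type letters, had the largest rise. It had 2314 and 2648 normalized counts in control, 2969 and 2433 in Cl1 and 5232 and 5196 in Cl10. The Cl10 libraries were far above the other 4, and those overlapped. The log2 fold change was 1.08 ± 0.09 (adjusted p = 0.000244) in Cl10 and 0.13 ± 0.13 (adjusted p = 0.501) in Cl1. UHRF1, which brings the maintenance DNA methyltransferase to replicated DNA, had 6536 and 6422 in control, 9220 and 6317 in Cl1 and 10884 and 11940 in Cl10. It rose by 0.82 ± 0.09 (adjusted p = 0.000525) in Cl10, with Cl1 replicate 1 high and Cl1 replicate 2 just below the controls.

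The MCM2 to MCM7 subunits form the helicase loaded at origins, and 5 of these 6 genes rose in Cl10. MCM4 had 13219 and 12826 normalized counts in control, 19040 and 14091 in Cl1 and 25281 and 25512 in Cl10, a log2 fold change of 0.97 ± 0.08 (adjusted p = 0.000231) in Cl10. For MCM2, the values were 5174 and 4721 in control, 7491 and 5325 in Cl1 and 8446 and 8340 in Cl10, and the change in Cl10 was 0.77 ± 0.08 (adjusted p = 0.000631). For both genes each Cl1 library was also above the controls, but the Cl1 changes, 0.35 ± 0.15 for MCM4 and 0.38 ± 0.15 for MCM2, did not pass (adjusted p = 0.102 and 0.0846). MCM3 rose by 0.59, MCM6 by 0.52 and MCM7 by 0.33 in Cl10, of which MCM7 was at 0.22 and did not pass with the median of its 50 nearest genes as an offset (adjusted p = 0.0832). MCM5 had 7593 and 8150 in control and 8589 and 8751 in Cl10, and its change of 0.14 ± 0.08 did not pass (adjusted p = 0.195). It lies on chromosome 22, where the 50 genes nearest to it stood at -0.63 in Cl10 by their median. With that median as an offset, MCM5 passed at 0.77.

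The genes of the clamp and of nucleotide supply all rose in Cl10. TYMS, which makes thymidylate, had 1551 and 1484 normalized counts in control, 1728 and 1331 in Cl1 and 2731 and 2777 in Cl10, with a log2 fold change of 0.86 ± 0.08 (adjusted p = 0.000291). RRM2, the S-phase subunit of ribonucleotide reductase, had 4718 and 5516 in control, 5953 and 4251 in Cl1 and 8043 and 8094 in Cl10, a rise of 0.66 ± 0.10 (adjusted p = 0.00197). In each case the Cl1 libraries lay on both sides of the controls and the Cl10 libraries above all others. For PCNA the Cl10 libraries were again the highest, with 11137 and 13515 in control, 15240 and 11820 in Cl1 and 18184 and 18083 in Cl10, a rise of 0.56 ± 0.11 (adjusted p = 0.00611). RRM1, the large subunit of the reductase, rose by 0.54.

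Among the factors that load and fire the helicase, the genes were divided. GINS2, a subunit of the active helicase, had 2580 and 3195 normalized counts in control, 3426 and 2372 in Cl1 and 4489 and 4412 in Cl10 and rose by 0.63 ± 0.11 (adjusted p = 0.00432). CDC6, which helps to load MCM rings, had 5120 and 5494 in control, 5118 and 4110 in Cl1 and 7258 and 7491 in Cl10 and rose by 0.48 ± 0.08 (adjusted p = 0.00376). CDT1, its partner in loading, differed from both: it had 5833 and 5819 in control, 3945 and 3236 in Cl1 and 5004 and 5131 in Cl10. All clone libraries were below the controls. The change in Cl10 was -0.20 ± 0.08 (adjusted p = 0.0788) and that in Cl1 was -0.70 ± 0.12 (adjusted p = 0.00143). With the median of its nearest genes as an offset, CDT1 passed as lower in Cl10 too, at -0.25 (adjusted p = 0.0412). CDC45, another subunit of the active helicase, was at -0.03 in Cl10 and -0.26 in Cl1, and neither passed.

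**Figure D2:**
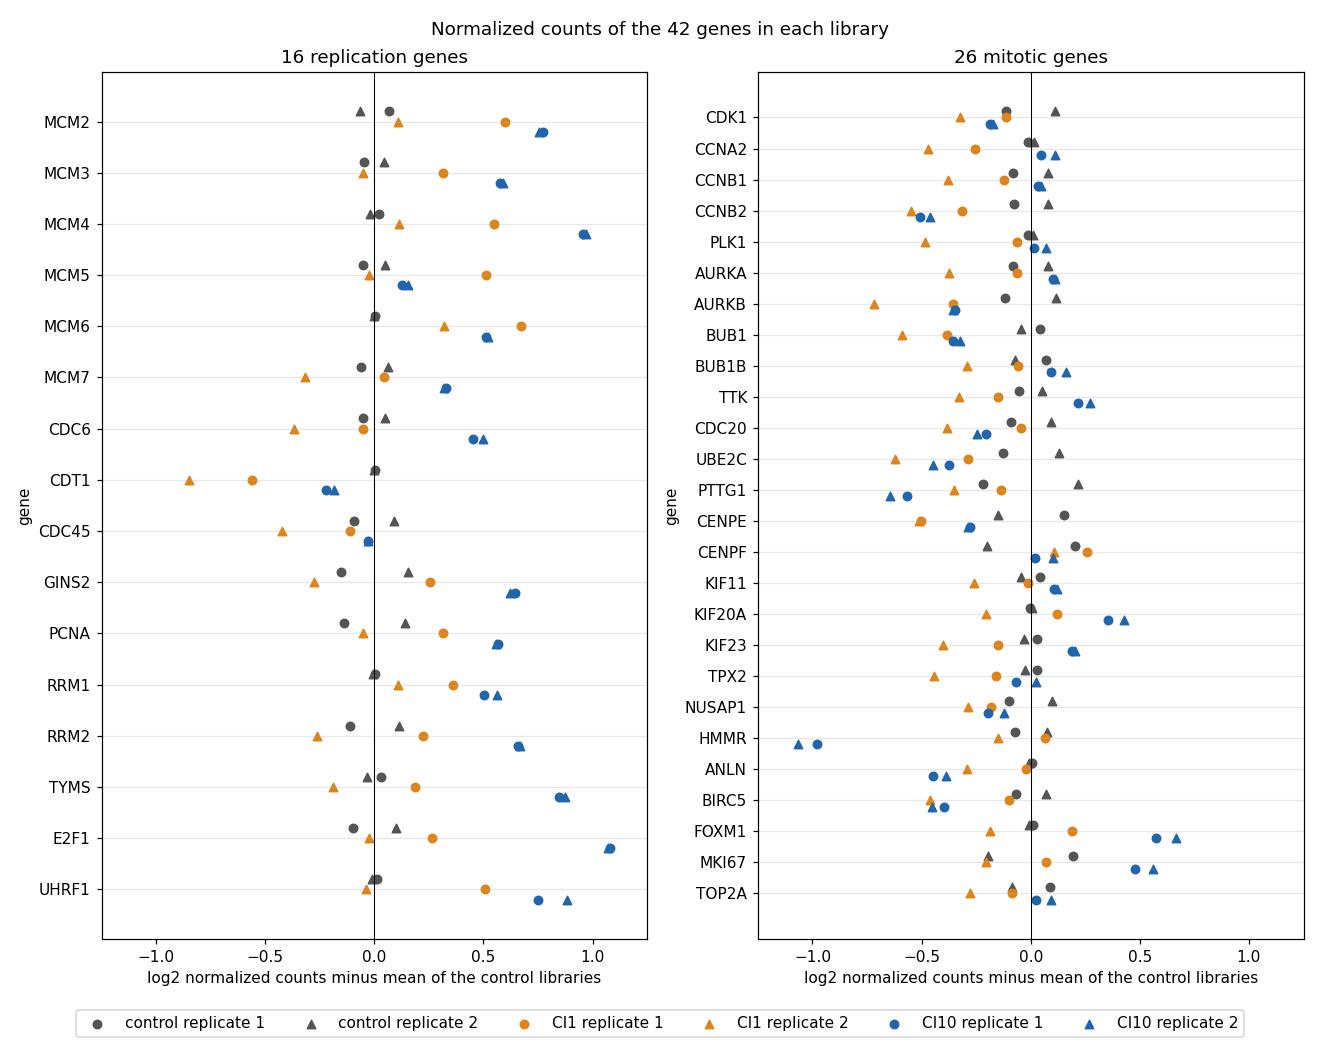
Points give the log2 normalized counts of each gene (rows) in each of the 6 libraries, minus the mean log2 value of the control libraries (0 line). Among replication genes both Cl10 libraries lie to the right of both controls for 14 of 16 genes, HMMR lies farthest to the left in Cl10, and Cl1 replicate 1 lies to the right of Cl1 replicate 2 for all 42 genes.

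The mitotic genes that rose in Cl10 were led by FOXM1, a transcription factor of G2 and M phase genes. It had 9098 and 8974 normalized counts in control, 10317 and 7931 in Cl1 and 13465 and 14354 in Cl10, with a log2 fold change of 0.63 ± 0.08 (adjusted p = 0.00127). MKI67, which encodes the Ki67 antigen of the surface of mitotic chromosomes, had 43604 and 33323 in control, 40009 and 33124 in Cl1 and 53009 and 56252 in Cl10. Although the controls differed from each other, both Cl10 libraries were above them, and the change was 0.51 ± 0.14 (adjusted p = 0.0211). KIF20A, a kinesin of cytokinesis, rose by 0.40 and TTK, the kinase MPS1 of the spindle checkpoint, by 0.25. With the local median as an offset, KIF20A was at 0.21 and MKI67 at 0.38, and neither passed (adjusted p = 0.0719 and 0.0599). TTK did not pass by DESeq2 (adjusted p = 0.0825).

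The mitotic genes that fell in Cl10 were led by HMMR, a hyaluronan receptor that also acts at the spindle. It had 5198 and 5759 normalized counts in control, 5728 and 4932 in Cl1 and 2776 and 2609 in Cl10. The Cl10 libraries stood apart from all others, and the change was -1.02 ± 0.09 (adjusted p = 0.000259). HMMR lies on chromosome 5, as DUSP1 does, and the 50 genes nearest to HMMR had a median of 0.04 in Cl10. PTTG1, the securin that holds back separase, is also on chromosome 5 and had 10069 and 13597 in control, 10637 and 9176 in Cl1 and 7890 and 7474 in Cl10. It fell by 0.62 ± 0.14 (adjusted p = 0.0118) in Cl10, with a local median of 0.04.

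The other 6 that fell in Cl10 changed by less than 0.5 on the log2 scale. CCNB2, cyclin B2, had 4927 and 5484 normalized counts in control, 4177 and 3554 in Cl1 and 3662 and 3771 in Cl10, below control in both clones, with -0.48 ± 0.09 (adjusted p = 0.00483) in Cl10. UBE2C, the ubiquitin-conjugating enzyme of the anaphase-promoting complex, had 8629 and 10319 in control, 7732 and 6122 in Cl1 and 7289 and 6924 in Cl10, with -0.41 ± 0.10 (adjusted p = 0.0185). AURKB, the kinase of the chromosomal passenger complex, had 10174 and 11984 in control, 8617 and 6707 in Cl1 and 8677 and 8627 in Cl10, with -0.35 ± 0.10 (adjusted p = 0.0272). BUB1, a spindle checkpoint kinase, had 7686 and 7224 in control, 5712 and 4949 in Cl1 and 5823 and 5957 in Cl10, with -0.34 ± 0.08 (adjusted p = 0.0149). For all 4 genes every clone library was below both controls. Such separation was common, as 37.6% of all genes were below control without overlap in Cl10 and 33% in Cl1.

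ANLN and BIRC5 lay in regions where the neighbouring genes were lower as well in Cl10. ANLN, the anillin of the contractile ring, fell by 0.41, and the 50 nearest genes on chromosome 7 had a median of -0.64. BIRC5, the survivin of the passenger complex, fell by 0.42, and its neighbours on chromosome 17 had a median of -0.44. With these medians as offsets the values were 0.22 and 0.02, and neither passed. BUB1, with a local median of -0.17, was at -0.17 with the offset and did not pass either (adjusted p = 0.14). CCNB2 (-0.50), AURKB (-0.33) and UBE2C (-0.67) passed with their offsets, the last with a local median of 0.26.

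The remaining 14 mitotic genes did not pass in Cl10 against control, with log2 fold changes from -0.29 for CENPE to 0.20 for KIF23. CDK1, the kinase that drives entry into mitosis, had 4571 and 5343 normalized counts in control, 4569 and 3943 in Cl1 and 4345 and 4378 in Cl10, a change of -0.18 ± 0.10 (adjusted p = 0.176). TOP2A, the topoisomerase that decatenates chromosomes, had 38464 and 34086 in control, 34151 and 29871 in Cl1 and 36803 and 38616 in Cl10, with 0.06 ± 0.10 (adjusted p = 0.641). The 95% interval of CDK1 ran from -0.41 to 0.05 and that of TOP2A from -0.17 to 0.29. The other values were those of CCNA2 (0.08), CCNB1 (0.05), PLK1 (0.05), AURKA (0.11), BUB1B (0.13), KIF11 (0.12), CENPF (0.05), TPX2 (-0.01), NUSAP1 (-0.16) and CDC20 (-0.22), none of which passed.

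**Figure D3:**
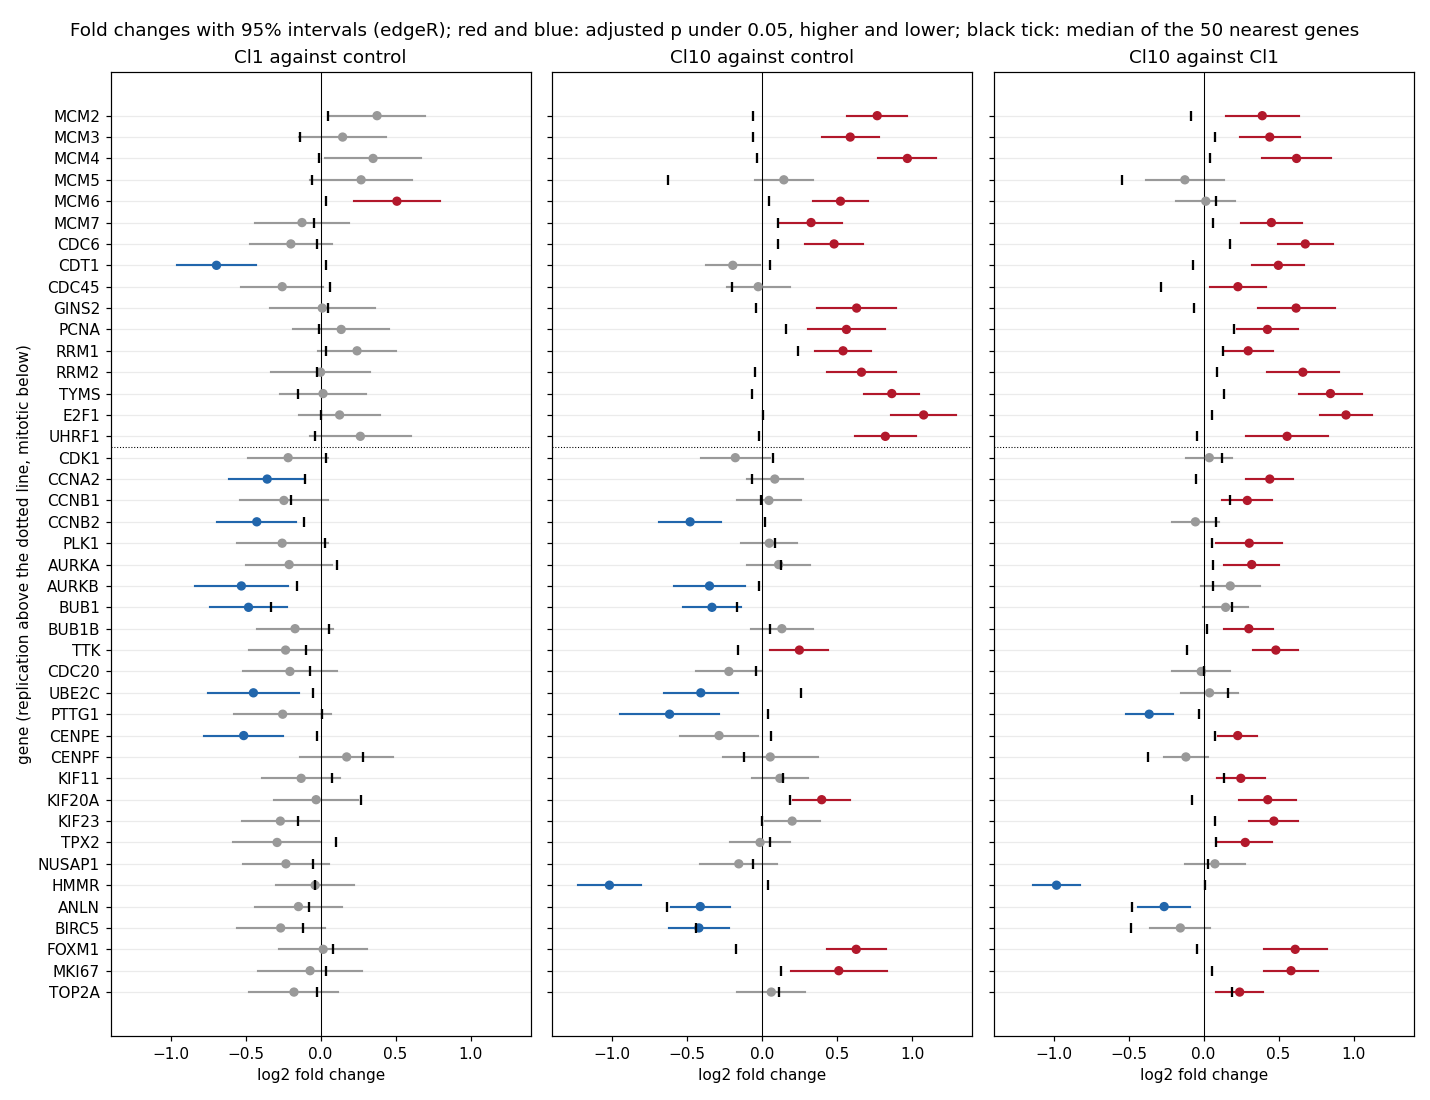
Points give the log2 fold change of each gene with its 95% interval in the 3 comparisons, red where a gene rose, blue where it fell and grey where it did not pass. Black ticks mark the median log2 fold change of the 50 nearest genes. In Cl10 against control 13 of the 16 replication genes are red, and for MCM5, ANLN and BIRC5 the ticks lie at -0.63, -0.64 and -0.44.

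In Cl1 against control, few of the genes passed, and those that did were mostly lower and mitotic. MCM6 rose, 7 genes fell and 34 did not pass, where 12.4% of the 20153 genes tested rose and 12.8% fell. Within the members' range of abundance, 14.2% rose and 12.7% fell. The median log2 fold change was 0.13 over the 16 replication genes and -0.23 over the 26 mitotic genes, of which 6 fell and none rose, and of which 24 had a value below 0. Higher mitotic genes were also absent at an unadjusted p under 0.05 in edgeR (0 of 26) and by DESeq2 (0 of 26). No member was beyond a log2 fold change of 1, where 4.27% of all genes passed upward and 3.27% downward. Both Cl1 libraries were above both controls for 4 of the 42 genes and below them for 18, where the groups did not overlap for 30.6% and 33% of all genes.

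MCM6, the one gene of the list that rose in Cl1, had 6183 and 6154 normalized counts in control, 9830 and 7688 in Cl1 and 8806 and 8852 in Cl10. All clone libraries were above the controls, with 0.51 ± 0.13 (adjusted p = 0.0141) in Cl1 and 0.52 ± 0.08 (adjusted p = 0.002) in Cl10. The fall of CDT1 was the largest in Cl1. CENPE, a kinetochore motor that aligns chromosomes, had 3607 and 2921 in control, 2288 and 2279 in Cl1 and 2673 and 2660 in Cl10, and it fell by 0.51 ± 0.12 (adjusted p = 0.00857) in Cl1. In Cl10 the change of CENPE was -0.29 ± 0.11 and did not pass (adjusted p = 0.0749), although both libraries lay below the controls. With the local median as an offset, CENPE passed in Cl10, at -0.34 (adjusted p = 0.0455).

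AURKB, BUB1, UBE2C and CCNB2, which fell in Cl10, also fell in Cl1, by 0.53 ± 0.14, 0.48 ± 0.12, 0.45 ± 0.14 and 0.43 ± 0.12. Their adjusted p values in Cl1 were 0.0171, 0.0109, 0.0341 and 0.0219. Both clones were compared with the same control libraries, so these falls are not independent of each other. CCNA2, cyclin A2 of S and G2 phase, had 6187 and 6310 in control, 5235 and 4505 in Cl1 and 6457 and 6745 in Cl10. It fell by 0.36 ± 0.12 (adjusted p = 0.0415) in Cl1, while both Cl10 libraries were slightly above the controls, at 0.08.

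By library size alone, without TMM factors, 1942 of all genes rose and 3191 fell in Cl1, in place of 2489 and 2575, and 1 member rose and 9 fell.

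The Cl1 values moved with the choice of libraries. Without Cl1 replicate 2, the median over all 42 genes was -0.043 in place of -0.17, and without Cl1 replicate 1 it was -0.29. Leaving out each library in turn, MCM6 ran from 0.32 to 0.68. Of the 7 falls, CDT1 ran from -0.85 to -0.56, CENPE from -0.66 to -0.36 and AURKB from -0.72 to -0.36. BUB1 ran from -0.59 to -0.38, UBE2C from -0.63 to -0.29, CCNB2 from -0.55 to -0.31 and CCNA2 from -0.47 to -0.25. Calls from such fits are not counted here, since a group of 1 library shows no spread of its own. With the local median as an offset, 2 fell, CDT1 and CENPE.

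The remaining Cl1 values did not pass. MKI67 changed by -0.07 ± 0.16, with a 95% interval from -0.42 to 0.27, TOP2A by -0.18 ± 0.14, CDK1 by -0.22 ± 0.12, PCNA by 0.14 ± 0.15 and FOXM1 by 0.02 ± 0.14 (adjusted p from 0.225 to 0.944). Of the replication genes, UHRF1 was at 0.26, MCM5 at 0.27, RRM1 at 0.24, MCM3 at 0.15, TYMS at 0.02, GINS2 at 0.01, RRM2 at -0.000767, MCM7 at -0.12 and CDC6 at -0.20. The other mitotic genes ran from -0.29 for TPX2 to 0.17 for CENPF, the one mitotic gene besides FOXM1 with a value above 0.

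The clones also differed from each other. In Cl10 against Cl1, 28 of the 42 genes were higher, 3 were lower and 11 did not pass, where 24.9% of the 19818 genes tested were higher and 24.1% lower. The median was 0.30 over all 42, 0.47 over the replication genes and 0.23 over the mitotic genes, against -0.00120 over all genes. All replication genes passed upward except MCM5 (-0.13) and MCM6 (0.01). The 3 lower genes were HMMR, PTTG1 and ANLN. None was beyond 1, where 4.47% and 6.28% of all genes were. The groups did not overlap for 30 genes that were higher and 4 that were lower, against 37.4% and 37.3% of all genes, and within the members' range of abundance 33.2% of genes passed as higher and 28.6% as lower.

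E2F1 was higher in Cl10 than in Cl1 by 0.95 ± 0.08 (adjusted p = 1.14e-06), TYMS by 0.85 ± 0.10 (adjusted p = 1.41e-05) and CDC6 by 0.68 ± 0.08 (adjusted p = 3.07e-05). RRM2 followed with 0.66, GINS2 and MCM4 with 0.62, UHRF1 with 0.56 and CDT1 with 0.50. On the mitotic side FOXM1 was higher by 0.61 ± 0.10 (adjusted p = 0.000208), MKI67 by 0.58 ± 0.08 (adjusted p = 9.51e-05), TTK by 0.48, KIF23, a motor of the central spindle, by 0.47 and CCNA2 by 0.44. HMMR stood at -0.98 ± 0.07 (adjusted p = 4.74e-07), PTTG1 at -0.36 and ANLN at -0.26. The neighbours of ANLN had a median of -0.48, and with it as an offset ANLN passed in the other direction, at 0.22 (adjusted p = 0.0446). For E2F1, TYMS, RRM2 and HMMR the Cl10 libraries did not overlap with any control or Cl1 library. This was not particular to them, as it also held for other members, MCM4, PCNA and FOXM1 among them. Of all genes, 36.2% were above and 37.6% below control without overlap in Cl10, and 37.4% and 37.3% against Cl1.

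The size of this difference varied with the Cl1 library used. The median over the 42 genes was 0.42 without Cl1 replicate 1 and 0.16 without Cl1 replicate 2, against 0.30 with both. Over the other ways of fitting that kept every library, 17 of the 31 genes passed in each. These were MCM3, MCM4, MCM7, CDC6, CDT1, RRM2, TYMS, E2F1, CCNA2, AURKA, BUB1B, TTK, KIF20A, KIF23, HMMR, FOXM1 and MKI67. In Cl10 against control the same held for 18 of 25 genes. They were MCM2, MCM3, MCM4, MCM6, CDC6, GINS2, PCNA, RRM1, RRM2, TYMS, E2F1, UHRF1, CCNB2, AURKB, UBE2C, PTTG1, HMMR and FOXM1. In Cl1 against control it held for 3 of 8, MCM6, CDT1 and CENPE, whose values moved with the library left out as given above.

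Genes of the same processes outside the list were counted too, from lists chosen with earlier results of these data known. Of 47 other replication genes tested, 19 rose and 8 fell in Cl10 (median 0.21), and 1 rose and 10 fell in Cl1 (median -0.20). The shares of all genes were 20.6% and 21.8% in Cl10 and 12.4% and 12.8% in Cl1, here and for the lists that follow. FEN1, the flap endonuclease of Okazaki fragments, had 3358 and 3890 normalized counts in control, 8263 and 6192 in Cl1 and 9901 and 10165 in Cl10. Its log2 fold changes were 1.00 ± 0.14 (Cl1, adjusted p = 0.000381) and 1.47 ± 0.10 (Cl10, adjusted p = 0.000107), in a region of chromosome 11 with local medians of 0.47 and 0.52. CLSPN, the claspin of the replication checkpoint, rose by 0.82 in Cl10. RPA3, a subunit of the single-strand binding protein, fell by 1.60, PRIM1, a primase subunit, by 1.00 and POLD2 by 0.92 in Cl10, with local medians of -0.86, -0.59 and -0.50. In Cl1, RFC4 fell by 0.57, PRIM2 by 0.54 and ORC2 by 0.51.

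Of 57 other mitotic genes, 13 rose and 11 fell in Cl10 (median -0.06), counts near the shares of all genes, and 16 fell and none rose in Cl1 (median -0.22). In Cl10, CDCA5, the sororin of sister chromatid cohesion, rose by 0.89, ZWINT by 0.64 and the condensin gene SMC2 by 0.63. NCAPG, another condensin gene, fell by 1.08, ECT2, the exchange factor of cytokinesis, by 1.07 and TACC3 by 0.87, where the local medians were -0.46, -0.54 and -0.79. In Cl1, CKAP2L fell by 0.89, CENPK by 0.73 and CKS2, a partner of CDK1, by 0.70. Against Cl1, Cl10 had 34 of these 57 genes higher and 11 lower, and 34 of the 47 other replication genes higher and 6 lower. Of all genes tested in that comparison, 24.9% were higher and 24.1% lower, and within the members' range of abundance 33.2% and 28.6%.

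Among 17 cell-cycle transcription factors and subunits of the DREAM and MuvB complexes, 7 rose and 1 fell in Cl10, and 3 rose and 2 fell in Cl1, where the counts were near the shares of all genes. MYBL2, which encodes B-MYB, had 9455 and 10333 normalized counts in control, 12960 and 9869 in Cl1 and 17318 and 17060 in Cl10 and rose by 0.80 ± 0.09 (adjusted p = 0.000569) in Cl10. E2F8, a repressor of E2F targets, rose by 0.69 and RBBP4, a MuvB subunit, by 0.63. E2F5, an E2F bound by pocket proteins, fell in both clones, by 0.79 in Cl1 and 1.21 in Cl10, each against the same controls. In Cl1, E2F7 fell by 0.73, E2F2 rose by 0.65, TFDP2 by 0.57 and E2F3 by 0.41.

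The promoter letters were set beside the changes as a description. Of the 12 replication genes with E2F-type letters, 11 rose in Cl10, and CDT1 did not pass, while 1 of the 2 without these letters rose, and 20.6% of all genes did. Of the 13 mitotic genes with the CHR letters TTTGAA, 1 rose and 3 fell in Cl10, and of the 7 without, 1 rose and 3 fell. Among these 7, CCNB1, PTTG1, CENPE and KIF20A held the variant TTTAAA, and BUB1 held TTCGAA. The split therefore does not separate genes with and without any CHR form. HMMR, MKI67 and ANLN each held 2 CHR matches and changed by -1.02, 0.51 and -0.41 in Cl10. Their windows differed in CCAAT boxes, with 5, 2 and 0. With the local median as an offset the changes were -1.06, 0.38 and 0.22, of which only that of HMMR passed. CDC20 and TOP2A also held 2 CHR matches and did not pass in Cl10. Whether the letters bear on the changes was not tested.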

How the data were processed

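From poly(A)-selected libraries read in pairs, the authors mapped reads with HISAT2 (hg38) and, by their methods, counted them with HTSeq, while the submitters' processing notes name StringTie. The deposited values are whole-number raw counts per gene, and which of these tools made them, the annotation, the strand setting and the rule for reads matching several genes are not given in the sources used here. The labels name a stranded kit and the study another. Samples of the SOX2 experiment were left out.

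The 42 genes and the other lists were chosen with earlier results of these data known. Each comparison was fitted on its own 4 libraries with edgeR 4.0.16 in R 4.3.3 (filterByExpr, TMM, estimateDisp, glmQLFit, glmQLFTest, two-sided), with Benjamini-Hochberg adjustment over all genes tested. A gene passed at an adjusted p under 0.05. Standard errors were obtained from the log2 fold change and the F statistic, as their absolute ratio after taking the root of F. TPM were computed from the counts and GENCODE v44 exon lengths, and local medians from the 50 nearest genes. Values per library are given for MKI67, TOP2A, CDK1, PCNA, E2F1, FOXM1 and MCM2 and for the 10 members that passed with the largest change in each comparison. Of other lists, at most 3 genes a direction are named, and 1 of them is not reported here. MCM5 is one of the 42 genes, and its values per library were printed in addition, after they were seen. Alternatives were DESeq2 1.42.0, other scalings, filters and designs, a local median offset, each library left out and, chosen after seeing the data, a GC content and length trend. The fits were tested on simulated data. Changes of 4-fold were recovered for 90 of 98 genes in Cl1, 94 of 98 in Cl10 and 94 of 98 in Cl10 against Cl1. For changes of 1.5-fold these were 40 of 97, 50 of 99 and 60 of 98, so changes of that size were often missed.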

Additional observations from a re-analysis of the deposited data

Results flagged for a closer look

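The 2 clones differed from each other, in the direct edgeR test of Cl10 against Cl1, for 31 of the 42 genes, which are listed here with their log2 fold changes. Of all 19818 genes tested, 24.9% were higher and 24.1% lower, and within the members' range of abundance 33.2% and 28.6%, so many genes outside the list differed too. Among replication genes, Cl10 was higher for E2F1 (0.95), TYMS (0.85), CDC6 (0.68), RRM2 (0.66), MCM4 (0.62), GINS2 (0.62), UHRF1 (0.56), CDT1 (0.50), MCM7 (0.45), MCM3 (0.44), PCNA (0.43), MCM2 (0.39), RRM1 (0.30) and CDC45 (0.23). Among mitotic genes it was higher for FOXM1 (0.61), MKI67 (0.58), TTK (0.48), KIF23 (0.47), CCNA2 (0.44), KIF20A (0.43), AURKA (0.32), PLK1 (0.30), BUB1B (0.30), CCNB1 (0.29), TPX2 (0.28), KIF11 (0.25), TOP2A (0.24) and CENPE (0.23). It was lower for PTTG1 (-0.36), HMMR (-0.98) and ANLN (-0.26). All 42 genes were higher in Cl1 replicate 1 than in Cl1 replicate 2, and the part of this in the differences was not tested. Groups of 2 libraries are too small for a test of single libraries that stand apart.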

How the results depend on the processing

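With 2 libraries a group, a change needs to be large against the spread between these libraries to pass, and a library left alone in its group is assumed to vary like the others. Counts of genes that passed are given below as higher and lower. With an absolute log2 fold change above 1 required, they were 0 and 0 in Cl1, 1 and 1 in Cl10, and 0 and 0 in Cl10 against Cl1. Without the low-count filter, 2 were higher in Cl1; with the local median as an offset, 2 were lower in Cl1 and the Cl10 median was 0.17; with 1 fit over the 6 libraries, 1 was lower in Cl10 against Cl1. The cause was not tested. Leaving out a library in turn gave 0 to 5 higher and 0 to 16 lower in Cl1 (median -0.29 to -0.043), 12 to 22 and 2 to 13 in Cl10 (median 0.10 to 0.15), and 22 to 35 and 2 to 10 in Cl10 against Cl1 (median 0.16 to 0.42). Calls from those fits are not counted. The replicate numbers did not pair the libraries (correlations of deviations -0.061, -0.027 and 0.018). The replicate block gave 1 and 6, 15 and 8, and 29 and 3. Other settings that kept every library left the counts of genes that passed within 1.5 times.

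Some signs turned. In Cl1 they were RRM2 (0.00938 with DESeq2 size factors, 0.00590 with at least 10 counts in every library, 0.021 with the local offset), GINS2 (-0.063 by library size, -0.00666 unfiltered, -0.00557 with the replicate block, -0.041 local, -0.00290 with the GC and length trend), TYMS (-0.058 by library size, -0.00218 unfiltered, -0.000451 with the trend), FOXM1 (-0.056 by library size, -0.00116 unfiltered, -0.063 local), CENPF (-0.11 local) and HMMR (0.074 with the trend). In Cl10 the local offset gave CDC45 0.17, PLK1 -0.036, AURKA -0.015, KIF11 -0.019, ANLN 0.22, BIRC5 0.017 and TOP2A -0.054, and the trend gave TPX2 0.011. In Cl10 against Cl1, library size gave CCNB2 0.019 and CDC20 0.058, the trend gave CDC20 0.044, and the local offset gave MCM5 0.42, MCM6 -0.068, CDK1 -0.086, BUB1 -0.044, UBE2C -0.12, CENPF 0.25, ANLN 0.22 and BIRC5 0.33, of which MCM5, CENPF, ANLN and BIRC5 then passed as higher.

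Leaving out a library turned the sign in Cl1 for GINS2 (-0.28 to 0.25), MKI67 (-0.25 to 0.13), RRM2 (-0.27 to 0.23), TYMS (-0.19 to 0.19), CENPF (-0.013 to 0.39), HMMR (-0.15 to 0.071), MCM3 (-0.049 to 0.32), MCM5 (-0.023 to 0.52), PCNA (-0.058 to 0.31), E2F1 (-0.025 to 0.27), UHRF1 (-0.034 to 0.52), FOXM1 (-0.19 to 0.20), MCM7 (-0.32 to 0.051) and KIF20A (-0.20 to 0.13). In Cl10 it did so for CCNB1 (-0.041 to 0.12), TPX2 (-0.061 to 0.036), CDC45 (-0.13 to 0.061), CENPF (-0.14 to 0.26) and TOP2A (-0.030 to 0.14). In Cl10 against Cl1 it did so for MCM5 (-0.38 to 0.17), CCNB2 (-0.18 to 0.065), CDC20 (-0.19 to 0.16), BIRC5 (-0.33 to 0.036), MCM6 (-0.16 to 0.20), CDK1 (-0.073 to 0.15), AURKB (-0.000445 to 0.37) and UBE2C (-0.13 to 0.22). Among the turned values were CENPF in Cl10 (-0.14, without control replicate 2) and, in Cl10 against Cl1, MCM5 (0.17) and CDC20 (0.16) without Cl1 replicate 1. Without Cl1 replicate 2 they included MCM6 (-0.16) and UBE2C (-0.13).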
